A study of Drosophila melanogaster with 8 samples.

Results

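The genes described here encode the subunits of the vacuolar H+-ATPase (V-ATPase) of Drosophila melanogaster, taken as every row of the deposited count table whose FlyBase identifier has a symbol beginning with Vha. There were 27 such genes among 11769 rows: 12 for the V1 sector, 13 for the V0 sector and 2 for accessory proteins. A further 6 symbols of the family (Vha44, Vha100-3, Vha16-2, Vha16-3, Vha16-4 and VhaM9.7-d) had no row under their identifier and were not analysed here, so subunit C, which Vha44 encodes, is missing from the account below. A symbol was found for 11698 of the rows, so a member listed under an identifier without one would be missed, also in the counts and sums of its sector. The transcripts were measured in sorted larval macrophages, the blood cells that engulf debris and microbes. Larvae labelled wild-type carried hmlΔ>2xeGFP, a reporter driven by the Hemolectin promoter that other blood cell classes can also express, and were reared at 25 °C on a control diet (CD) of sucrose-yeast medium or on a high-sugar diet (HSD), to which a 10x supplement of sucrose was added. At 96 h after egg laying 5 larvae were bled, and each poly(A) RNA library was made from 20000 sorted GFP-positive cells. The control diet had replicates 1, 3, 4 and 5 and the high-sugar diet replicates 1, 2, 3 and 4, so n = 4 libraries per diet.

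The V-ATPase is a rotary proton pump. Its V1 sector sits in the cytosol and hydrolyses ATP in a head of A and B subunits; D and F form the central rotor, E and G the peripheral stalks, and C and H connect and regulate the sectors. Its V0 sector lies in the membrane, where subunit a holds the proton path, c and c'' form the turning ring, d links the ring to the rotor and e is a small membrane protein whose role is less well defined. The pump acidifies endosomes, lysosomes and, in phagocytes, the phagosome in which engulfed material is digested. In flies several subunits are encoded by more than 1 gene, and many of the additional copies are best known from single tissues such as the testis.

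Library totals ran from 20817891 to 24733521 counts, and 7844 genes had enough counts to be tested. The libraries within a diet were not equally alike. CD replicate 1 differed from the other CD libraries with a chi-square per degree of freedom of 114 to 118, where those differed among themselves by 7.19 to 18.4, and HSD replicate 4 differed from the other HSD libraries by 28.1 to 60.4, where those differed by 15.1 to 33.4. The labelled cell type was checked against 11 plasmatocyte (macrophage) markers, all of which were tested. Their summed abundance was 76098.5 to 86913.4 CPM on CD and 108977 to 123072 CPM on HSD, where CPM is the count divided by the library total in units of 1e6 counts, after TMM scaling. Markers of crystal cells, another blood cell class, were also present, at 24536.1 to 29236.3 CPM on CD and 31763.8 to 48732.8 CPM on HSD. Lamellocyte markers summed to 1021.87 to 1353.26 CPM on CD and 1292.51 to 1516.03 CPM on HSD. Most of that lamellocyte sum was 1 gene, cher, with means of 1008 CPM on CD and 1076 CPM on HSD. The lamellocyte markers atilla and ItgaPS4 had means of 0.204 and 0.022 CPM on CD and 6.04 and 3.26 CPM on HSD. Summed markers of Malpighian tubule stayed between 3.13 and 7.09 CPM, of muscle between 10.1 and 15.3 CPM, of fat body between 12.8 and 70.6 CPM, of neurons between 6.16 and 11.4 CPM and of testis between 0.142 and 0.743 CPM.

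A set of 14 genes carried nearly all the counts of the V-ATPase genes with a row, which leaves out Vha44. Members were split by their mean over all 8 libraries: 14 were abundant (at least 10 CPM), 3 were low (kept by the count filter but under 10 CPM) and 10 were scarce (not kept by the filter). The abundant genes held 99.788% of the 856562 counts assigned to the family. They gave each of the 12 subunits with a row, plus the accessory protein, 1 abundant gene, except for subunit a, which had both Vha100-2 and Vha100-1. The member just above the boundary was Vha100-1 at 110.3 CPM and the member just below it was VhaM9.7-c at 5.77 CPM.

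Levels between genes are compared as CPM per kilobase of exonic length. The highest level belonged to Vha16-1, the gene of the ring subunit c, at 399.9 ± 25.0 (SD over 8 libraries). It was followed by Vha13 (subunit G) at 298.8 and Vha14-1 (subunit F) at 222, and the libraries of these first pairs of neighbours did not overlap. Vha14-1, VhaPPA1-1 (subunit c'', 201.2) and Vha68-2 (subunit A, 200.6) could not be ordered, because the libraries of each overlapped those of the next. With the length of the canonical transcript in place of all exons, Vha68-2 stood above VhaPPA1-1.

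The other head subunit gene, Vha55 (subunit B), stood at 149.6 CPM per kilobase, below Vha68-2 in every library, and its libraries overlapped those of Vha26 (subunit E, 141.2). Vha36-1 (subunit D) followed at 125.7. VhaAC39-1 (subunit d, 108.9), VhaM9.7-b (subunit e, 102.8) and Vha100-2 (subunit a, 96.5) formed another run of overlapping neighbours. VhaSFD (subunit H) was lower at 73.7 and Vha100-1 (subunit a) lowest among the abundant genes at 33.5. The accessory gene VhaAC45, the homologue of human ATP6AP1, lay between the A and B subunit genes at 176.1. From Vha16-1 to Vha100-1 the abundant genes spanned an 11.9-fold range of levels.

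**Figure D1:**
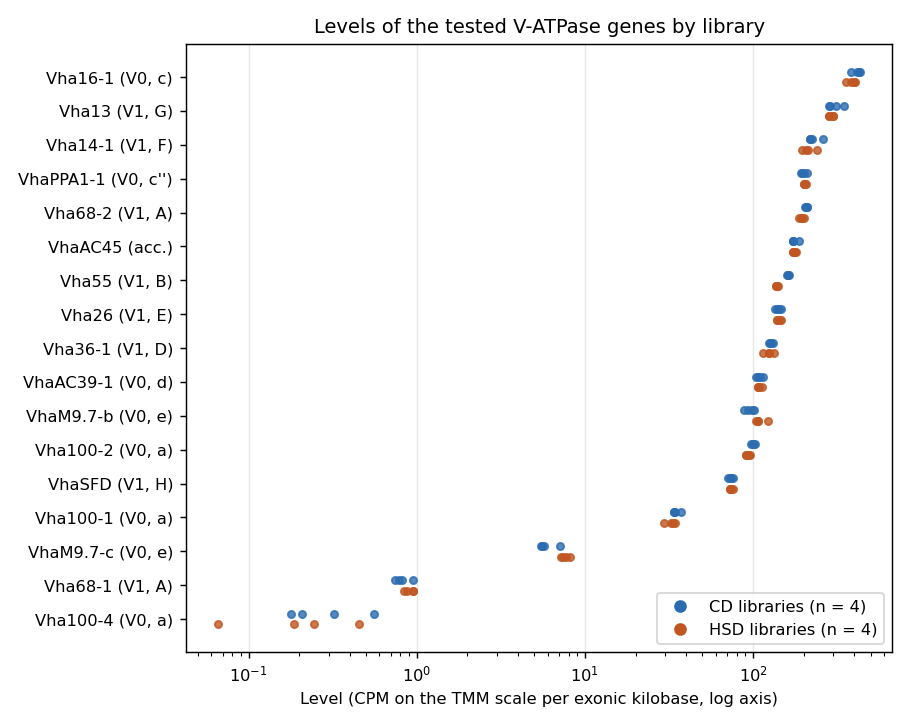
Level of each tested V-ATPase gene in every library, as CPM on the TMM scale per kilobase of exonic length (log axis); each point is a library, blue for CD and orange for HSD, and names give the sector and subunit. The 14 abundant genes lie between 29.5 and 434.3, while VhaM9.7-c, Vha68-1 and Vha100-4 lie between 0.0656 and 8.17.

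The additional copies were present at a small share of their subunit's transcripts, apart from Vha100-1. For subunit a, whose isoforms set where the pump is placed, Vha100-1, best known in flies from neurons, made up 25.7% ± 0.566 of the summed level per kilobase on CD and 25.7% ± 1.29 on HSD (SD, n = 4 each). Vha100-4 contributed 0.232% and 0.191%. VhaM9.7-c supplied 5.87% ± 0.540 of subunit e on CD and 6.47% ± 0.630 on HSD. Vha68-1, which lies near Vha68-2 on chromosome arm 2L and encodes a closely similar A subunit, supplied 0.396% ± 0.0422 and 0.465% ± 0.0215, and its 42 to 68 counts per library could include reads that belong to Vha68-2, since no source used here says how multiply mapped reads were treated.

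The 10 scarce genes held 238 counts in all over the 8 libraries, 0.0278% of the family's counts. They ranged from 3 counts for Vha100-5 through VhaAC45RP (7), Vha36-3 (9), VhaAC39-2 (11), VhaPPA1-2 (14), Vha16-5 (20), Vha36-2 (32), Vha68-3 (42) and VhaM9.7-a (49) to 51 counts for Vha14-2. Of their 80 library values 18 were 0, and in the shallowest library a count of 0 still allows up to 3 counts, 0.144 CPM. No diet difference was tested for these genes. CD replicate 1 alone held 10 of the 20 counts of Vha16-5. Vha100-5 shares 18.1% of its exonic length with a gene on the opposite strand, asRNA:CR44144, and reads from that gene cannot be told apart without strand.

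On the high-sugar diet the summed V-ATPase transcripts were slightly lower after TMM scaling. The 27 members summed to 4871.3 ± 34.5 CPM on CD and 4653.36 ± 69.9 CPM on HSD (SD, n = 4 each), a log2 difference of −0.066, and every HSD library lay below the lowest CD library. This sum has no length correction, and most of its difference came from Vha16-1, Vha55 and Vha68-2. Their means were 1272, 447.5 and 572.1 CPM on CD and 1189, 385.8 and 534.7 CPM on HSD. VhaM9.7-b went up, and Vha26, VhaSFD, VhaPPA1-1, VhaAC39-1 and VhaAC45 had nearly equal means on both diets. Of 17 tested members 2 rose, VhaM9.7-b and VhaM9.7-c, both encoding subunit e, 1 fell, Vha55, the B subunit of the head, and 14 did not pass (edgeR quasi-likelihood test, adjusted p under 0.05). Among all tested genes 26% were called, 14.4% as higher and 11.6% as lower, so 3 of 17 members is no larger a share than the background. The members' median log2 fold change was −0.04, beside −0.00501 over all tested genes. The 12 abundant genes that did not pass had log2 fold changes from −0.112 to 0.0179, and their 95% intervals together ran from −0.27 to 0.12. In 5 members the diets were fully separated (2 with HSD above, 3 below), against 28% of all tested genes. Without CD replicate 1 and HSD replicate 4 together, again 2 members rose and 1 fell. Within a diet the abundant members had a coefficient of variation of 1.17% to 9.27% (median 3.25%, beside 6.11% over the 5838 tested genes of at least 10 CPM). These medians are not matched for level, since the lowest abundant member, Vha100-1, stood at 110.3 CPM. In pooled cells, fewer cells of a class and less RNA per cell cannot be told apart.

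**Figure D2:**
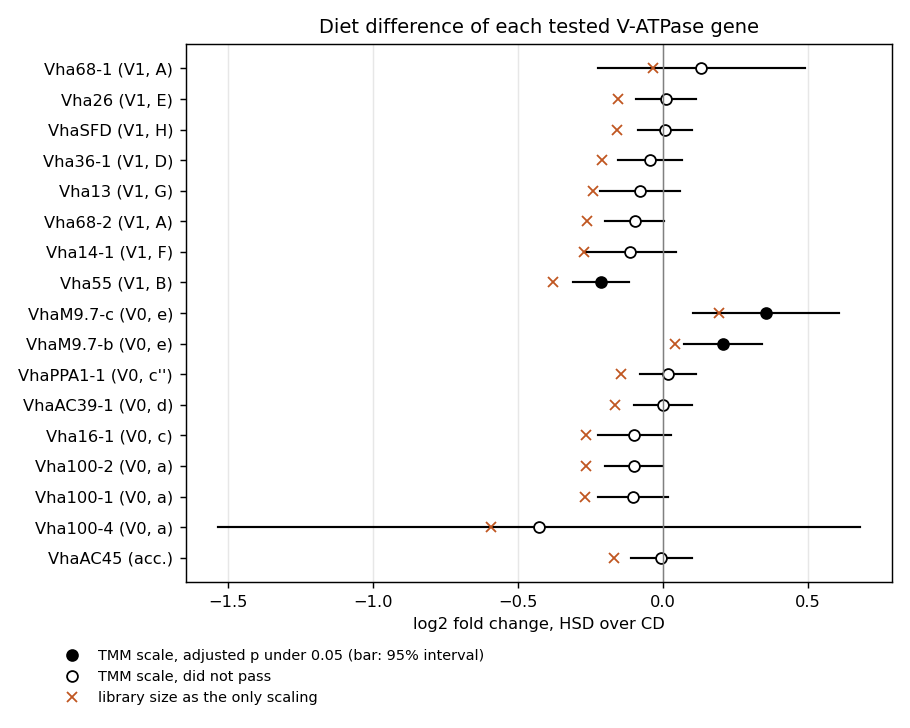
Log2 fold change (HSD over CD) of the 17 tested V-ATPase genes, ordered by sector. Circles give the TMM-scaled estimate with its 95% interval (filled where the edgeR adjusted p was under 0.05) and crosses the estimate with libraries scaled by their totals alone, which lies to the left of the circle for every gene. The filled circles are Vha55 at −0.21, VhaM9.7-b at 0.21 and VhaM9.7-c at 0.36.

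Among the V1 genes, Vha55 was lower in every HSD library. Its values were 447.9, 446.8, 454.1 and 441.3 CPM in CD replicates 1, 3, 4 and 5 and 387, 394.2, 381.8 and 380.1 CPM in HSD replicates 1 to 4. The diets did not overlap, and the spread within a diet was 1.17% and 1.65% of the mean. On HSD the level was 0.862 of that on CD, a log2 fold change of −0.21 ± 0.0446 (SE; edgeR, adjusted p = 0.00338, and 1.47e-08 to 0.149 among alternatives). Leaving out any single library left it between −0.22 and −0.21. With the replicate number as a block, Vha55 stood at −0.23 and did not pass (edgeR adjusted p = 0.149). The gene lies on chromosome arm 3R from 12623762 to 12627829 on the minus strand in dm6, has 3 annotated transcripts and shares no exon with another gene.

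Vha68-2, whose product pairs with that of Vha55 in the catalytic head, showed a smaller difference. Its values were 560.1, 570.2, 580.2 and 577.9 CPM on CD and 531.3, 551.1, 537.7 and 518.6 CPM on HSD, again without overlap. The log2 fold change of −0.10 ± 0.0461 (SE) did not pass in edgeR (adjusted p = 0.143, and 0.0011 to 0.533 among alternatives) but did in DESeq2 (adjusted p = 0.0344). The ratio of the Vha55 level to the Vha68-2 level per kilobase, a comparison chosen after its values were seen, was 0.775 ± 0.0146 on CD and 0.715 ± 0.0106 on HSD, with every HSD library below every CD library.

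The remaining V1 genes did not pass. Vha26 (subunit E), at 411.8 ± 12.8 CPM on CD and 414.8 ± 11.6 CPM on HSD, and VhaSFD (subunit H), at 207.9 ± 6.85 and 209 ± 3.31 CPM, had log2 fold changes of 0.010 and 0.0075, with 95% intervals of −0.09 to 0.12 and −0.09 to 0.10. The rotor gene Vha36-1 stood at −0.04, the stalk gene Vha13 at −0.08 and the rotor gene Vha14-1 at −0.11. Vha14-1 varied from 143.9 to 171.8 CPM on CD and from 129.2 to 157.6 CPM on HSD, and its interval of −0.27 to 0.05 was the widest of the 14 abundant genes. The low-level isoform Vha68-1 was at 2.21 ± 0.238 CPM on CD and 2.43 ± 0.152 CPM on HSD, a log2 difference of 0.13 with an interval of −0.22 to 0.49.

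Among the V0 genes, the calls fell on subunit e. VhaM9.7-b measured 123.2, 113, 120.2 and 108 CPM in CD replicates 1, 3, 4 and 5 and 130.3, 129.2, 127.3 and 149.1 CPM in HSD replicates 1 to 4. All HSD values exceeded all CD values, with the narrowest gap between CD replicate 1 and HSD replicate 3. The level was 1.15-fold that on CD, 0.21 ± 0.0621 on the log2 scale (SE; edgeR, adjusted p = 0.0272, and 0.00474 to 0.571 among alternatives). The call was lost without CD replicate 3, CD replicate 5 or HSD replicate 4 (edgeR adjusted p = 0.0839, 0.0887 and 0.0609) and when libraries were scaled by their totals alone (0.571). It was also lost with the replicate number as a block (edgeR adjusted p = 0.223).

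VhaM9.7-c, another e subunit gene of far lower abundance, measured 6.01, 4.71, 4.68 and 4.87 CPM on CD and 6.93, 6.12, 6.58 and 6.24 CPM on HSD. HSD replicate 2 and CD replicate 1 lay close together, while the other CD libraries lay well below. Its level was 1.28-fold that on CD, 0.36 ± 0.115 on the log2 scale (SE; edgeR, adjusted p = 0.0384, and 0.00344 to 0.181 among alternatives). The edgeR call was lost without any of CD replicates 3, 4 and 5 or HSD replicates 1 to 4 (adjusted p from 0.0557 to 0.112), under scaling by totals alone (0.159) and without a low-count filter (0.0616), and it was kept without CD replicate 1 (0.00662). It was also lost with the replicate number as a block (edgeR adjusted p = 0.181). VhaM9.7-b lies at 21539862 to 21541215 and VhaM9.7-c at 4186018 to 4186865 on chromosome arm 3L in dm6, on opposite strands.

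**Figure D3:**
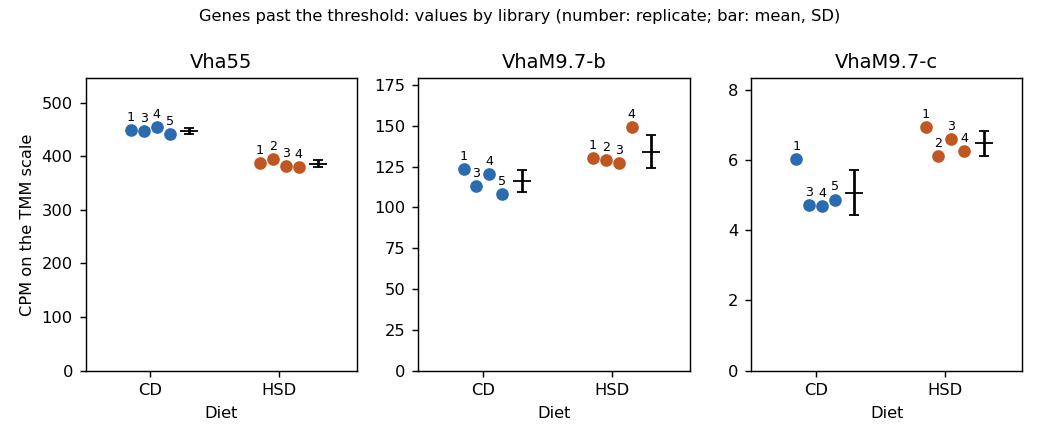
CPM on the TMM scale in each library for the genes past the threshold, with replicate numbers beside the points and the mean and SD (n = 4 libraries per diet) to their right; axes start at 0. Vha55 lies between 441.3 and 454.1 on CD and between 380.1 and 394.2 on HSD, while VhaM9.7-b and VhaM9.7-c are separated by narrow gaps.

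The other V0 genes did not pass. Vha16-1, the most abundant transcript of the family, measured 1173, 1308, 1336 and 1272 CPM on CD and 1239, 1233, 1183 and 1100 CPM on HSD. CD replicate 1 lay inside the HSD range, and the log2 fold change was −0.10 with a 95% interval of −0.22 to 0.03. Both subunit a genes showed a similar size of difference, Vha100-2 at −0.10 (321.8 ± 6.42 against 300.3 ± 8.99 CPM, no overlap between the diets) and Vha100-1 at −0.10 (114.3 ± 5.28 against 106.4 ± 6.64 CPM, overlapping). Vha100-2 did not pass in edgeR (adjusted p = 0.126, and 0.0014 to 0.531 among alternatives) but did in DESeq2 (0.048) and limma-voom (0.0441). The ring gene VhaPPA1-1 and the linker gene VhaAC39-1 had log2 fold changes of 0.018 and −0.00059 with intervals of −0.08 to 0.115 and −0.10 to 0.10. Vha100-4, at 12 to 36 counts on CD and 4 to 25 on HSD, had an interval of −1.53 to 0.68, and its libraries varied by 54.7% and 68.4% of the mean within the diets.

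The accessory gene VhaAC45, whose product assists assembly of the pump, stood at 355.2 ± 14.8 CPM on CD and 353.8 ± 7.90 CPM on HSD (log2 fold change −0.0060, 95% interval −0.11 to 0.10). A related accessory gene, ATP6AP2, bore the symbol VhaM8.9 in the past and so falls outside the symbol rule. At 275.2 ± 13.1 CPM on CD, its log2 fold change of 0.077 did not pass (edgeR adjusted p = 0.263).

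The size of the family's difference, and the number of members called, depended on how libraries were scaled, while the sum was lower on HSD either way. As a share of all counts the 27 members made up 0.493%, 0.526%, 0.525% and 0.518% of CD replicates 1, 3, 4 and 5 and 0.441%, 0.443%, 0.443% and 0.431% of HSD replicates 1 to 4. Every HSD library was lower. Scaled by totals alone, 13 of 17 members were lower and 0 higher (edgeR, adjusted p under 0.05; those that did not pass were VhaM9.7-b, VhaM9.7-c, Vha68-1 and Vha100-4), and on that scale 40.3% of all tested genes were called lower and 8.8% higher. The change of scaling moved the median over all tested genes by −0.164, to −0.169, and that of the members to −0.208.

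The sectors were also summed separately. On the TMM scale the V1 genes summed to 1315, 1220, 1223 and 1237 CPM per kilobase on CD and 1143, 1202, 1165 and 1198 on HSD, every HSD library below every CD library. The V0 genes summed to 959.4 ± 14.2 on CD and 941.9 ± 13.9 on HSD and overlapped. The ratio of V0 to V1 was 0.769 ± 0.0354 on CD and 0.801 ± 0.0270 on HSD, also overlapping, and a difference between the sectors was not tested. Of the markers that moved with diet, 8 of 11 plasmatocyte markers rose and none fell, 9 of 10 crystal cell markers rose and none fell, and 4 of 5 lamellocyte markers rose and none fell. Over all tested genes 14.4% were called higher and 11.6% lower. Under scaling by totals alone 5 plasmatocyte markers rose and 1 fell, 7 crystal cell markers rose and 0 fell, and 4 lamellocyte markers rose and 0 fell. On that scale 8.8% of all tested genes were called higher and 40.3% lower. The summed ranges given above were separated between the diets for plasmatocyte and crystal cell markers and overlapped for lamellocyte markers. The Malpighian tubule markers with a row (3 of 6) summed to 3.13 to 4.03 CPM on CD and 4.75 to 7.09 CPM on HSD. The 1 that was tested, Irk1, rose from 3.42 to 4.94 CPM (edgeR adjusted p = 0.0221). It did not pass under scaling by totals alone (0.0628) or with the replicate number as a block (0.2175). Leaving out single libraries raised its adjusted p to as much as 0.0675. The part of these markers in the V-ATPase values was not tested.

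**Figure D4:**
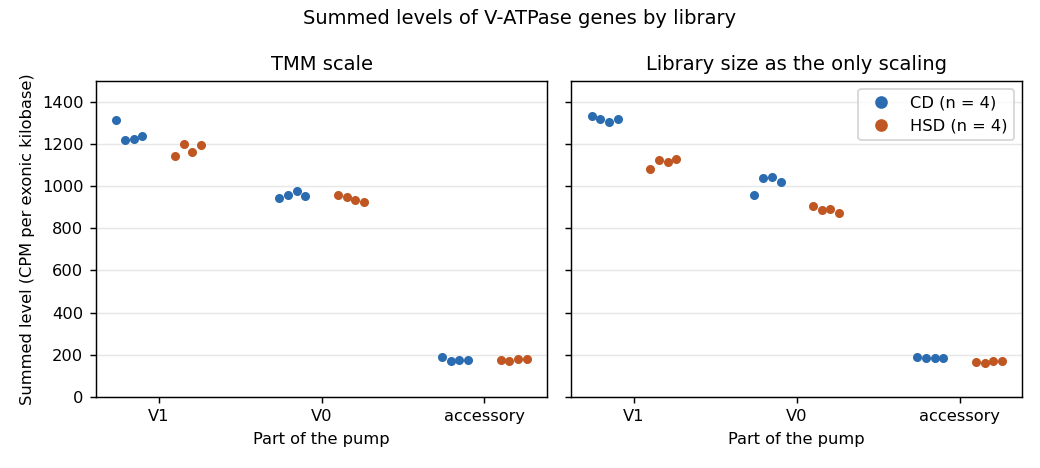
Summed level of the V1, V0 and accessory genes in each library (CPM per exonic kilobase), on the TMM scale at the left and scaled by totals alone at the right; each point is a library. Scaled by totals the sums of all 3 parts are lower in every HSD library, while on the TMM scale only V1 is without overlap.

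The balance between isoforms of a subunit was tested as the log2 ratio of each tested additional copy to the most abundant copy, with a two-sided exact permutation test over libraries and Benjamini-Hochberg adjustment over the 4 ratios; 4 libraries against 4 cannot give a p below 0.0286. No ratio passed, but after adjustment over the 4 ratios a single ratio at an exact p of 0.0286 could not pass either. The test therefore cannot decide whether the balance of any one pair was unchanged. Vha68-1 relative to Vha68-2 came closest, 1.18-fold higher on HSD with overlapping libraries (exact p = 0.0571, adjusted 0.228). VhaM9.7-c relative to VhaM9.7-b was 1.11-fold higher (exact p = 0.2, adjusted 0.4). Vha100-1 relative to Vha100-2 differed by 0.997-fold (exact p = 0.914, adjusted 0.914), and Vha100-4 relative to Vha100-2 by 0.72-fold (exact p = 0.543, adjusted 0.724).

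Genes that act with the pump were counted from lists. Of 5 assembly and regulation genes 0 passed in edgeR, and 0 had an unadjusted p under 0.05, with a median log2 fold change of −0.09. They include Mitf, the fly homologue of TFEB and a known activator of V-ATPase genes, at 0.02 (95% interval −0.14 to 0.18). Scaled by totals alone, 3 of the 5 were lower, where 40.3% of all tested genes were called lower. On the TMM scale 26% of all tested genes were called in either direction. Of the 12 tested genes of the mitochondrial F-type ATP synthase, a rotary enzyme that runs in the ATP-making direction, 0 passed in edgeR and 1 had an unadjusted p under 0.05, with a median of 0.08. Scaled by totals alone, 2 of these 12 were lower and 0 higher, with a median of −0.0851.

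Lysosomal hydrolases work in the acid lumen that the pump maintains. Of 10 tested, 4 rose, 1 fell and 5 did not pass, with a median of 0.13, where 26% of all tested genes were called. The proteases CtsL1 and cathD rose 1.49-fold and 1.48-fold, the hexosaminidase gene Hexo1 1.39-fold and the protease gene CtsF 1.17-fold (edgeR adjusted p = 1.13e-05, 4.64e-05, 6.63e-06 and 0.00309), although CtsF did not pass under scaling by totals alone (0.265). The β-galactosidase gene Gal, named after its value was seen, fell by 0.37 on the log2 scale (edgeR adjusted p = 0.00441). Scaled by totals alone, 3 of the hydrolases rose and 5 fell, with a median of −0.0312. On that scale 8.8% of all tested genes were called higher and 40.3% lower, with a median of −0.169. Among 7 lysosomal membrane genes Cln7 rose 1.31-fold (edgeR adjusted p = 0.00117) and 6 did not pass.

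Of 10 tested genes of the TOR machinery, the growth regulator that is switched on at the lysosome surface beside the V-ATPase, 3 rose, 2 fell and 5 did not pass, where 26% of all tested genes were called. Scaled by totals alone, 1 of the 10 rose and 2 fell, where 8.8% of all tested genes were called higher and 40.3% lower. The gene path, for an amino acid transporter, rose 1.78-fold, the GTPase gene Rheb 1.16-fold and the Ragulator gene Lamtor5 1.2-fold, while mTor fell by 0.27 and RagC-D, named after its value was seen, by 0.16 on the log2 scale (edgeR adjusted p = 1.57e-05, 0.00667, 0.0196, 0.0221 and 0.0261). Rheb and Lamtor5 did not pass under scaling by totals alone (0.455 and 0.256). The mTor call was lost without CD replicate 3, 4 or 5 or HSD replicate 2 (0.0743, 0.0606, 0.0621 and 0.0513), the RagC-D call without CD replicate 4 or HSD replicate 1 or 2 (0.0639, 0.0716 and 0.0693), and the Lamtor5 call without CD replicate 3 or 4 or HSD replicate 4 (0.0698, 0.0631 and 0.0523).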

How the data were processed

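The submitters' processing notes name Trim Galore 0.6.7, STAR 2.7.10a, featureCounts and the dm6 build; no source used here gives the strand setting or how multiply mapped reads were handled. The authors deposited whole-number counts per FlyBase identifier, not normalized. Symbols came from the gene name table and exonic lengths and positions from Ensembl release 115, which uses dm6 coordinates. Genes were kept by filterByExpr (minimum count 10), libraries scaled by TMM and diet tested across 7844 genes with edgeR 4.0.16 (R 4.3.3, robust quasi-likelihood, Benjamini-Hochberg, threshold 0.05). Standard errors are the log2 fold change over the square root of F. The test was checked on simulated data, where it recovered 20 of 50 genes changed 1.25-fold and 47 of 50 changed 1.5-fold. Alternatives were other scalings and filters, DESeq2 1.42.0, limma-voom (limma 3.58.1), a replicate block, each library left out, and a canonical transcript length, the last chosen after seeing the data. Every member is named; of each further list, up to 4 genes with the smallest p past the threshold, and Mitf. The members and lists were chosen with earlier results of these data known. Nothing says that libraries of a diet came from separate cultures, so p-values measure the spread between libraries, which may be technical. The limit given for a count of 0 covers counting error only. Library totals are given with the results.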

Additional observations from a re-analysis of the deposited data

Results flagged for a closer look

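In 5 of the 34 sets of 4 libraries (17 tested members in each diet), a single library lay far from the other libraries of its diet by Dixon's criterion, which chance alone meets in about 1 set in 20. CD replicate 1 was the distant library in 3 of them: Vha14-1 stood at 172 CPM against 144 to 148 in the other CD libraries, VhaAC45 at 377 CPM against 346 to 350, and VhaM9.7-c at 6.01 CPM against 4.68 to 4.87. In CD replicate 5, Vha100-1 stood at 122 CPM against 111 to 113. In HSD replicate 4, VhaM9.7-b stood at 149 CPM against 127 to 130, and that gene's call was lost without this library. The cause of these distances was not tested.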

How the results depend on the processing

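Of 287 values of the 17 tested members under the alternatives, 234 kept direction and side of the threshold, 16 fell below it, 12 passed it in the same direction and 25 changed sign. Of those that changed sign, Vha26, VhaPPA1-1 and VhaSFD also passed when scaled by totals alone (edgeR adjusted p = 0.019, 0.0145 and 0.0241). Scaled by totals alone, 0 members were higher and 13 lower, with 690 and 3161 of all tested genes; the summed log2 difference became −0.2484 for V1, −0.1909 for V0 and −0.1684 for accessory genes, and Vha26 (−0.1535), VhaPPA1-1 (−0.1451), VhaSFD (−0.1575) and Vha68-1 (−0.03284) turned negative. Without a low-count filter 1 member was higher. DESeq2 called 3 members lower, and limma-voom 2 members and 1453 genes. VhaAC39-1, near 0, turned positive with upper quartile scaling (0.002529), a stricter filter (0.002402), limma-voom (0.002533) and CD 1 and HSD 4 left out (0.009297). The last of these also turned VhaAC45 positive (0.02016), as did limma-voom (0.0106), which turned VhaSFD negative (−0.01011).

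With the replicate number as a block, 0 members were higher and 0 lower (589 and 253 of all tested genes), and Vha26 became −0.0217. Number 2 occurs only on HSD and number 5 only on CD. The block therefore compares the diets within numbers 1, 3 and 4 alone, so a call lost there may reflect fewer libraries. Of the other genes named, CtsF, mTor, Rheb, RagC-D and Lamtor5 did not pass with the block (edgeR adjusted p = 0.093, 0.218, 0.215, 0.3 and 0.135). Same-numbered libraries did not deviate together (correlations −0.131, −0.0738 and −0.176 for numbers 1, 3 and 4). These few correlations cannot decide whether a number marks libraries handled together, and the labels do not say.

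Leaving out each library in turn gave 0 to 2 members higher, 1 to 1 lower, 929 to 1408 of all tested genes higher and 660 to 1223 lower. Log2 fold changes then ran from −0.9364 to 0.0001822 for Vha100-4, −0.007594 to 0.02811 for Vha26, −0.02128 to 0.02813 for VhaAC39-1, −0.02003 to 0.03077 for VhaAC45 and −0.004547 to 0.02618 for VhaSFD. The isoform ratio ran from −0.04585 to 0.0298 for Vha100-1 and −0.8984 to 0.05592 for Vha100-4. The cause of these changes was not tested. The motif counts in promoters were not run, since no promoter sequence was used here. The 3 counts that a value of 0 still allows limit what can be said of the scarce genes.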
